A study of Mus musculus with 12 samples.

Results

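C1qa, C1qb, C1qc, Csf1r, Tyrobp, Mrc1, Cd163, Adgre1, Cd68 and Cyba are 10 genes of macrophages and of complement C1q, out of 49585 genes counted in the mouse adrenal cortex. They were chosen by name, and some of them because they differed between the diets in these same data. Their HFD and ND values are therefore given as a description, with no p-value for any of them in that contrast. Each symbol matched 1 gene identifier, and all 10 genes passed the filter on low counts in each comparison.

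The study asked how diet-induced obesity and dietary icosapent ethyl change the adrenal cortex, and RNA of the dissected cortex was sequenced in 12 mice, 1 library per mouse. All mice were 6 weeks old at the start and were fed for 20 weeks. The 4 ND mice (ND replicates 2, 5, 6 and 7) received a low-fat diet with 10% of its calories from fat. The 4 HFD mice (replicates 1 to 4) received a high-fat diet with 60% of its calories from fat. The 4 Vasc mice (replicates 1 to 4) received the same high-fat diet, to which icosapent ethyl, the ethyl ester of the omega-3 fatty acid EPA, was added for the last 10 weeks. The labels give the genotype Fads2-/- for all 12 mice, whereas the methods of the study describe male wild-type C57BL/6J mice. Fads2 stood between 452 and 2181 CPM in the 12 libraries, so the labelled genotype is not repeated for any group below. Total counts ran from 34785979 to 67295963 per library.

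Macrophages of the adrenal cortex lie among the steroid-producing cells and along the sinusoids, where they take up dying cells and debris. C1q, built from the A, B and C chains, is the recognition part of the classical complement pathway, and tissue macrophages are a main source of it. Csf1r carries the signal of CSF1 and IL-34 on which most tissue macrophages depend, and Tyrobp is the adaptor through which many activating myeloid receptors signal. Mrc1 and Cd163 are endocytic receptors, Adgre1 encodes F4/80, Cd68 is a glycoprotein of late endosomes and lysosomes, and Cyba is the membrane subunit that stabilizes the phagocyte NADPH oxidase. Mrc1 is also made by sinusoidal and lymphatic endothelial cells and Cyba by many cell types, and these bulk values do not name the cell that made the RNA. In bulk RNA, fewer macrophages and less RNA per macrophage cannot be told apart.

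The 3 C1q genes lie side by side on the minus strand of chromosome 4 (GRCm38). C1qb spans 136880129 to 136886187, C1qc 136889804 to 136893065, and C1qa 136895917 to 136898803, so that the whole cluster takes 18675 bases and the gaps between neighbours are 3616 and 2851 bases. The other 7 genes are each on another chromosome, Mrc1 on 2, Cd163 on 6, Tyrobp on 7, Cyba on 8, Cd68 on 11, Adgre1 on 17 and Csf1r on 18. Upstream sequence is shown for C1qb, C1qc and Cd68, which stood lower in every HFD mouse than in any ND mouse, and for Mrc1, which did not. The windows of Cyba, which also stood lower in every HFD mouse, and of Cd163 are not shown. Neither held the letters marked in capitals in the others. It is taken 5′ to 3′ from RefSeq windows of 250 bases before the start site (GRCm38.p6) and ends before any exon that GENCODE M21 gives to the gene. Capitals mark GAGGAA, the core bound by the macrophage factor PU.1, or its reverse complement TTCCTC. C1qb, C1qc and Cd68 are on the minus strand and Mrc1 is on the plus strand.
C1qb, chr4:136886201-136886450: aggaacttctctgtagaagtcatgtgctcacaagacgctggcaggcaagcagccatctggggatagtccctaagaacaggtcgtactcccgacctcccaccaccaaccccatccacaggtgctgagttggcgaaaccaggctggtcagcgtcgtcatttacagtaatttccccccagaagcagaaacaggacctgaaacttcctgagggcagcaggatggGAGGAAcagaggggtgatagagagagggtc
C1qc, chr4:136893066-136893164: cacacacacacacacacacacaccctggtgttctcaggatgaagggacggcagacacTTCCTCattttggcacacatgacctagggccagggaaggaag
Cd68, chr11:69666171-69666420: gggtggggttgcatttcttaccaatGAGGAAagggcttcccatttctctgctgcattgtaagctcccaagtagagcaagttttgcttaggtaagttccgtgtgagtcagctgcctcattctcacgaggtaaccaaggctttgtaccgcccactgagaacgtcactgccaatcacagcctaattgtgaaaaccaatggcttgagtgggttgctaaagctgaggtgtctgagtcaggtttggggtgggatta
Mrc1, chr2:14229164-14229391: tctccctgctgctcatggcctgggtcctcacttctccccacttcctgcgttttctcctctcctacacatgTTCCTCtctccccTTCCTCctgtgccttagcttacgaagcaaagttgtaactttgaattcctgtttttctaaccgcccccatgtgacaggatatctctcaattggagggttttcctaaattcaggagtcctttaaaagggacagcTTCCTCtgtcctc
GAGGAA on either strand was found 3 times before Mrc1 and 1 time each before C1qb, C1qc and Cd68, and it was not found in the windows of Cyba and Cd163. The search used the whole window of 250 bases for each gene, also where the sequence shown is shorter, and the letters were present in 23.3% of 32851 windows of 250 bases. The core of the MAF element, TGCTGA, was found before C1qb (16.1% of all windows). The Cd68 window held the C/EBP letters TTGCNNAA (9.56% of all windows) and 2 AP-1 sites, TGANTCA (6.75%), of which the nearer starts 24 bases before the start site. TCACGTG, bound by the MITF and TFE family, was in none of these 6 windows and in 3.13% of all. No 2 of these matches shared a base, and Mrc1, the gene shown that did not stand lower, held the most matches of GAGGAA. C1qa, Csf1r, Adgre1 and Tyrobp had no entry in the table.

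Levels were compared between genes as TMM-normalized CPM, counts scaled to a common library size, and given per kilobase of exon. In the ND mice C1qa (138 ± 18.9, SD, n = 4) and C1qb (121 ± 22.5) were highest, followed by Cyba (69.5 ± 5.73), Tyrobp (52.5 ± 5.38), C1qc (51.0 ± 8.33) and Cd68 (31.2 ± 6.11). Adgre1 (9.27 ± 2.64), Csf1r (8.38 ± 1.37) and Mrc1 (4.25 ± 1.24) were lower, and Cd163 was lowest at 0.158 ± 0.0502. The ranges of C1qa and C1qb, of Tyrobp and C1qc, and of Adgre1 and Csf1r overlapped, and the other neighbours in this order did not overlap. In the HFD mice C1qc (29.4 ± 2.46) stood before Tyrobp (28.8 ± 1.89) and Csf1r (7.79 ± 0.661) before Adgre1 (6.67 ± 0.496), in each case with overlapping ranges, and the order was otherwise the same. Adgre1 and Mrc1 (5.05 ± 0.777) overlapped as well. The Vasc order was that of the ND mice with Csf1r (7.47 ± 0.858) and Adgre1 (6.83 ± 0.882) exchanged, again with overlapping ranges. Cd163 had 23 to 65 counts per library and the other 9 genes 566 to 7182.

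The 3 C1q genes stood lower in the HFD mice than in the ND mice. C1qa was at 127, 146, 132 and 171 CPM in ND replicates 2, 5, 6 and 7, at 80.1, 80.0, 100.1 and 85.7 CPM in HFD replicates 1 to 4, and at 86.8, 96.2, 84.0 and 90.6 CPM in Vasc replicates 1 to 4. C1qb was at 102, 145, 123 and 157 CPM in the ND mice, 78.3, 82.2, 97.9 and 82.8 CPM in the HFD mice, and 85.6, 96.9, 88.5 and 95.9 CPM in the Vasc mice. For both chains every ND mouse was above every HFD and every Vasc mouse, and the HFD and Vasc ranges overlapped. C1qc, the chain with the lowest level per kilobase, was at 82.3, 106, 88.1 and 117 CPM in the ND mice, 54.4, 53.6, 63.8 and 55.0 CPM in the HFD mice, and 55.3, 63.8, 59.2 and 58.5 CPM in the Vasc mice. Its groups were ordered in the same way. The HFD mean was 60.1% of the ND mean for C1qa, 64.7% for C1qb and 57.6% for C1qc, and the fitted log2 fold changes in HFD versus ND mice were -0.74 ± 0.11 (SE), -0.63 ± 0.13 and -0.80 ± 0.12. In Vasc versus HFD mice they were 0.05 ± 0.09, 0.11 ± 0.09 and 0.06 ± 0.09, each smaller than 2 times its SE. Summed per kilobase, C1q was at 310 ± 48.9 (SD) in ND, 191 ± 19.3 in HFD and 201 ± 11.2 in Vasc mice.

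By level per kilobase, C1qa held the largest mean share of C1q in each group. These shares depend on the annotated exon lengths, 1040 bases for C1qa, 1088 for C1qb and 1931 for C1qc. Before division by length, the ND means were 144, 132 and 98.5 CPM, and the Vasc mean of C1qb (91.7 CPM) was above that of C1qa (89.4 CPM). C1qa made up 44.7 ± 1.87% of the summed C1q level per kilobase in ND mice (SD, n = 4), 43.5 ± 0.625% in HFD mice and 42.8 ± 0.804% in Vasc mice. In Vasc replicates 3 and 4 C1qb had a larger share than C1qa. C1qb made up 38.9 ± 1.86%, 41.1 ± 0.597% and 41.9 ± 0.736%. The C1qc share was 16.4 ± 0.338% in ND, 15.4 ± 0.358% in HFD and 15.3 ± 0.507% in Vasc mice. Each HFD share of C1qc, 15.1% to 15.9%, was below each ND share, 16.0% to 16.8%, and each HFD share of C1qb, 40.6% to 41.9%, was above each ND share, 36.2% to 40.5%. The shares of C1qa overlapped between ND and HFD mice.

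**Figure D1:**
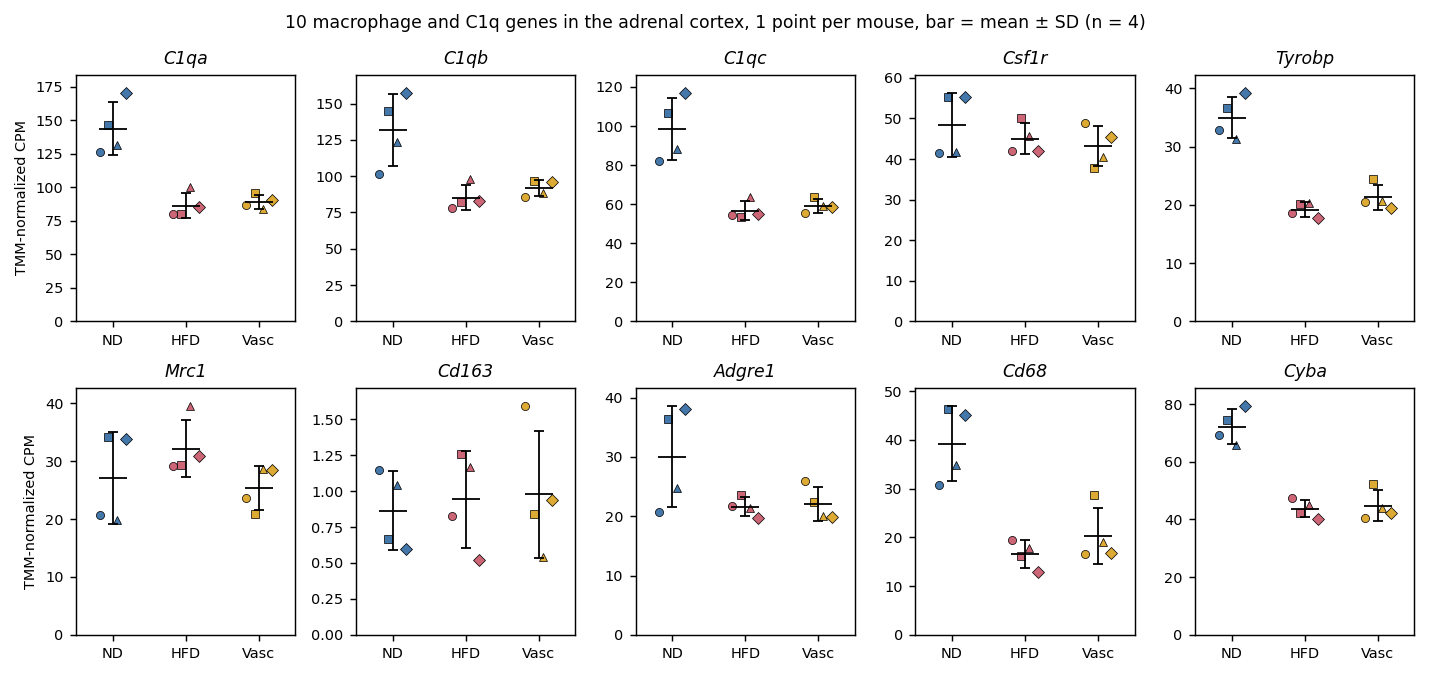
TMM-normalized CPM (vertical axes, from 0) of the 10 genes in the ND, HFD and Vasc groups, with 1 point per mouse and bars for the mean ± SD (n = 4). Marker shapes give the mice of a group in the order of their replicate numbers. All 4 ND mice lie above the 8 other mice for C1qa, C1qb, C1qc, Tyrobp, Cd68 and Cyba, and the groups overlap for Csf1r, Cd163 and Adgre1.

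Of the listed complement genes other than C1q, only properdin passed the test in HFD versus ND mice. Over all genes 1.45% passed in that comparison, and these calls depended on which mice were included, as given below. Of 11 tested genes of the classical pathway after C1q, none passed the threshold of the edgeR test in HFD versus ND mice, 8 had a log2 fold change below 0, and the median was -0.20, against -0.01 over all 15909 genes tested. C4b, which carries the cascade on after C1, had the highest level of them, with a log2 fold change of 1.26 ± 0.36 (adjusted p = 0.0904). It spread from 107 to 460 CPM among the HFD mice and from 100.4 to 147 CPM among the ND mice. C7 (-1.18 ± 0.24) and C8g (-0.93 ± 0.20) stood lower in every HFD mouse than in any ND mouse. Cfp, properdin, which stabilizes the convertase of the alternative pathway, fell by 1.13 ± 0.19 on the log2 scale (adjusted p = 0.0398). It lay between 5.54 and 7.65 CPM in ND mice and between 2.26 and 3.31 CPM in HFD mice. None of 7 complement regulators and none of 10 complement receptors passed, with medians of -0.40 and -0.20. The regulator Serping1 (-0.74 ± 0.16) stood lower in HFD mice without overlap. So did 4 receptors, Itgam (-1.04 ± 0.25), Itgb2 (-0.78 ± 0.18), Itgax (-0.70 ± 0.20) and C5ar1 (-0.63 ± 0.21), against 5.81% of all genes. The receptor Megf10 (1.81 ± 0.39) stood higher without overlap. Clu, clusterin, the regulator with the highest level, differed by 0.01 ± 0.09 (adjusted p = 0.945), and Calr, calreticulin, which binds the collagen-like part of C1q, by 0.05 ± 0.10 (adjusted p = 0.790).

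Csf1r overlapped between all groups. It stood at 41.4, 55.2, 41.6 and 55.3 CPM in the ND mice, 42.0, 50.1, 45.7 and 42.0 CPM in the HFD mice, and 48.8, 37.7, 40.6 and 45.5 CPM in the Vasc mice. The HFD values lay within the range of the ND values. The log2 fold change was -0.11 ± 0.12 (SE) in HFD versus ND mice, -0.06 ± 0.11 in Vasc versus HFD mice and -0.17 ± 0.14 in Vasc versus ND mice. The ligands of the receptor did not pass the threshold in any comparison. Csf1 was at 29.5 ± 2.88 CPM in ND and 29.2 ± 4.07 CPM in HFD mice (SD, n = 4, adjusted p = 0.936). None of 12 macrophage transcription factors passed in HFD versus ND mice, 6 were below 0, and their median was 0.01. Among these Cebpb, a bZIP factor that myeloid cells share with other cell types, had the highest level, with a log2 fold change of 0.49 ± 0.38 (adjusted p = 0.460). Spi1, which encodes PU.1, was at -0.56 ± 0.18 and Cebpa at -0.34 ± 0.13. These 2 of the 12 stood lower in every HFD mouse than in any ND mouse, as did 5.81% of all genes.

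Tyrobp, like C1q, was lower in the HFD and Vasc mice than in the ND mice. It stood at 32.9, 36.6, 31.3 and 39.2 CPM in the ND mice, 18.7, 20.2, 20.3 and 17.7 CPM in the HFD mice, and 20.6, 24.4, 20.7 and 19.5 CPM in the Vasc mice. Every ND mouse was above every other mouse. The log2 fold change was -0.87 ± 0.10 (SE) in HFD versus ND mice, 0.15 ± 0.11 in Vasc versus HFD mice and -0.72 ± 0.12 in Vasc versus ND mice. A list of receptors that couple to Tyrobp, with the related adaptors Fcer1g and Hcst, had 12 tested genes. Of these, 10 had a log2 fold change below 0 in HFD versus ND mice, against 51.8% of all genes, with a median of -0.55. The threshold was passed by 1, against 1.45% of all genes. This was Fcer1g, the related adaptor of Fc receptors, which fell by 0.66 ± 0.12 on the log2 scale (adjusted p = 0.0418). Its values lay between 21.2 and 27.4 CPM in ND mice and between 13.2 and 16.2 CPM in HFD mice. Of the 12 genes, 6 stood lower in HFD mice without overlap, against 5.81% of all genes, among them Trem2 (-1.02 ± 0.21). Trem1 stood higher without overlap (1.14 ± 0.43), at means of only 0.136 CPM in ND and 0.305 CPM in HFD mice. None of the 12 kinases and adaptors downstream passed, 9 were below 0, and their median was -0.34. Lyn, the Src-family kinase with the highest level, differed by 0.16 ± 0.16 (adjusted p = 0.567).

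The endocytic receptors Mrc1 and Cd163 did not follow C1q between the diets. Mrc1 was at 20.6, 34.1, 19.9 and 33.8 CPM in the ND mice, 29.1, 29.3, 39.5 and 30.8 CPM in the HFD mice, and 23.6, 20.9, 28.6 and 28.5 CPM in the Vasc mice. The ND mice split into a low and a high pair, and the HFD values overlapped the high pair. The log2 fold change was 0.24 ± 0.20 (SE) in HFD versus ND mice, -0.34 ± 0.15 in Vasc versus HFD mice and -0.09 ± 0.21 in Vasc versus ND mice. In Vasc versus HFD mice it was the only 1 of the 10 genes without overlap, with every Vasc mouse below every HFD mouse, and its adjusted p was 0.9997 (unadjusted p = 0.0467, edgeR quasi-likelihood test). The groups did not overlap for 1.14% of all genes in that comparison, and for 0.66% with Vasc lower. That comparison shares the HFD mice with the contrast that helped to choose the genes. Cd163, the haemoglobin-haptoglobin receptor, was at 1.15, 0.664, 1.05 and 0.594 CPM in the ND mice, 0.830, 1.26, 1.17 and 0.520 CPM in the HFD mice, and 1.59, 0.843, 0.545 and 0.937 CPM in the Vasc mice. Its groups overlapped, and the log2 fold change in HFD versus ND mice was 0.11 ± 0.35 (SE).

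Among related receptors 3 C-type lectins fell in HFD versus ND mice. Of 14 tested genes of the mannose receptor family and the C-type lectins, 13 were below 0, against 51.8% of all genes, and the median was -0.57. The threshold was passed by 3, all lower, against 0.471% of all genes. Clec4d, a receptor of mycobacterial glycolipid, fell by 1.77 ± 0.31 on the log2 scale (adjusted p = 0.0398), Clec4n, Dectin-2, by 1.14 ± 0.23 (adjusted p = 0.0480), and Clec12a, an inhibitory receptor that binds uric acid crystals, by 0.85 ± 0.17 (adjusted p = 0.0480). All 3 were low, with ND means of 5.81, 8.11 and 7.81 CPM. None overlapped between ND and HFD mice, as for 5.81% of all genes with HFD lower. Of 13 scavenger receptors and genes of haemoglobin handling, 5 were below 0, the median was 0.08, and 1 passed. Cd5l, a secreted protein of tissue macrophages, fell by 3.80 ± 0.57 (adjusted p = 0.0376). It lay between 17.6 and 52.1 CPM in ND mice and between 0.890 and 3.92 CPM in HFD mice. In the Vasc mice it lay between 0.663 and 7.64 CPM, which overlapped the HFD mice.

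Adgre1 was lower on average in the HFD mice, but the groups overlapped. It was at 20.7, 36.4, 24.8 and 38.2 CPM in the ND mice, 21.7, 23.6, 21.4 and 19.7 CPM in the HFD mice, and 26.0, 22.4, 20.1 and 19.9 CPM in the Vasc mice. ND replicates 5 and 7 were above all other mice, and ND replicate 2 lay among the HFD mice. The log2 fold changes were -0.48 ± 0.19 (SE) in HFD versus ND, 0.03 ± 0.12 in Vasc versus HFD and -0.44 ± 0.20 in Vasc versus ND mice. Adgre5, encoding CD97 and the higher of the related adhesion receptor genes listed, differed by -0.16 ± 0.18 in HFD versus ND mice (adjusted p = 0.611).

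Cd68 showed the largest difference of the 10 genes between ND and HFD mice. It stood at 30.7, 46.3, 34.8 and 45.1 CPM in the ND mice, 19.4, 16.2, 17.8 and 12.8 CPM in the HFD mice, and 16.5, 28.6, 18.9 and 16.7 CPM in the Vasc mice. Every ND mouse was above all other mice, and Vasc replicate 2 came nearest to them. The HFD mean was 42.2% and the Vasc mean 51.5% of the ND mean. The log2 fold change was -1.25 ± 0.17 (SE) in HFD versus ND mice, 0.29 ± 0.21 in Vasc versus HFD mice and -0.96 ± 0.21 in Vasc versus ND mice.

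Other macrophage markers, outside the 10 genes, lay on the same side for the most part. Of 19 tested markers 16 were below 0 in HFD versus ND mice, against 51.8% of all genes, with a median of -0.51. The threshold was passed by 3, all lower, against 0.471% of all genes. Ctss, a lysosomal cysteine protease, fell by 0.93 ± 0.12 on the log2 scale (adjusted p = 0.0340), Lyz2, lysozyme, by 0.96 ± 0.16 (adjusted p = 0.0398), and Aif1, the actin-binding protein IBA1, by 0.79 ± 0.16 (adjusted p = 0.0497). Lyz2 ran from 298 to 467 CPM in ND mice and from 177 to 225 CPM in HFD mice, and Ctss from 226 to 319 and from 136 to 162 CPM. The summed level of the 20 listed markers was 877 to 1300 CPM in ND, 594 to 733 CPM in HFD and 640 to 879 CPM in Vasc mice. All 10 pan-leukocyte genes were below 0 too, with a median of -0.53, and none passed. Laptm5, a lysosomal protein of blood cells, had the highest level of them, with a log2 fold change of -0.50 ± 0.17 (adjusted p = 0.127). Their summed level was 242 to 334 CPM in ND and 182 to 239 CPM in HFD mice, without overlap. These lists were written with earlier results of the same mice known.

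Cyba was lower in every HFD and Vasc mouse than in any ND mouse. It stood at 69.4, 74.5, 65.6 and 79.3 CPM in the ND mice, 47.3, 42.3, 45.1 and 40.3 CPM in the HFD mice, and 40.6, 52.4, 43.8 and 42.2 CPM in the Vasc mice. Its spread among the ND mice, with a coefficient of variation of 8.25%, was the smallest of the 10 genes. The log2 fold change was -0.73 ± 0.09 (SE) in HFD versus ND mice, 0.03 ± 0.10 in Vasc versus HFD mice and -0.69 ± 0.11 in Vasc versus ND mice. Its partners in the phagocyte oxidase did not pass the threshold. Of 8 tested, 7 were below 0 in HFD versus ND mice, with a median of -0.23. Rac1, the small GTPase of the complex and of most cells, had the highest level, with a log2 fold change of -0.04 ± 0.08 (adjusted p = 0.768). The ratio of Cybb, the catalytic subunit, to Cyba per kilobase was 0.137 ± 0.0250 in ND, 0.182 ± 0.0198 in HFD and 0.174 ± 0.0245 in Vasc mice (SD, n = 4). Noxo1, a partner of another oxidase that needs Cyba, was at 1.61 ± 0.217 CPM in ND and 1.64 ± 0.102 CPM in HFD mice (adjusted p = 0.969).

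**Figure D2:**
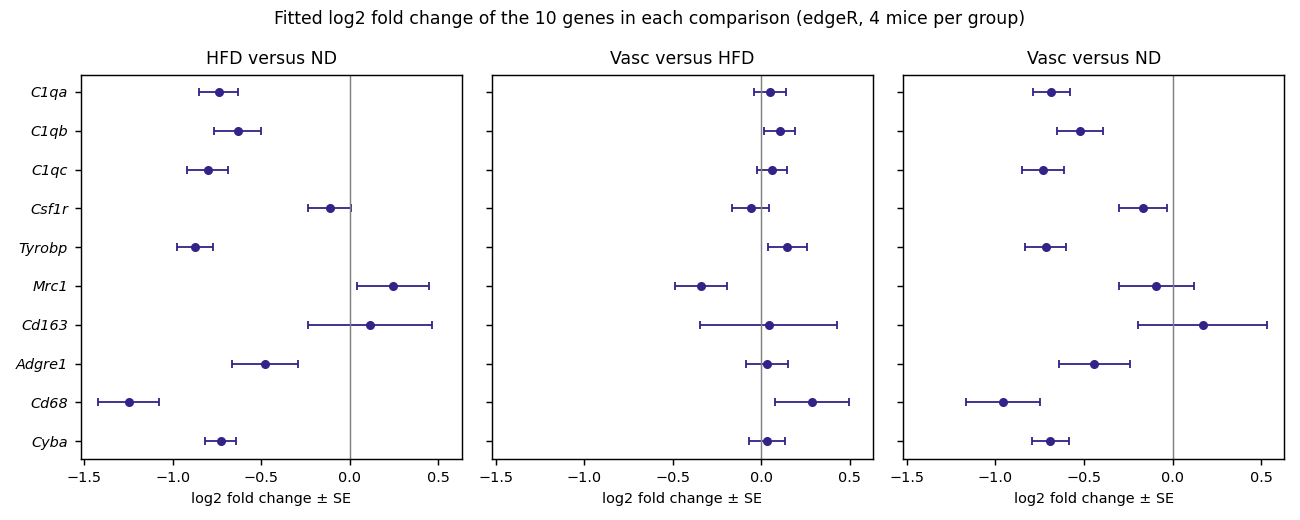
Fitted log2 fold change (horizontal axes, points, with SE as bars) of the 10 genes in HFD versus ND, Vasc versus HFD and Vasc versus ND mice, 4 mice per group. Cd68 lies farthest from 0 in HFD versus ND mice at -1.25, and in Vasc versus HFD mice the 10 values lie between -0.34 and 0.29.

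Counted over the 10 genes, 5 passed the threshold in HFD versus ND mice, all lower, while 1.45% of all 15909 genes passed, 155 higher and 75 (0.471%) lower. The ND and HFD mice did not overlap for C1qa, C1qb, C1qc, Tyrobp, Cd68 and Cyba, against 13.5% of all genes in either direction and 5.81% with HFD lower, and 8 of the 10 were below 0, against 51.8%. The median of the 10 was -0.68 and that of all genes -0.01. Since the contrast helped to choose the genes, nothing is read from these counts. With library totals in place of TMM factors the split of all calls changed from 155 higher and 75 lower to 40 higher and 44 lower, and with DESeq2 it was 974 higher and 991 lower. The edgeR calls depended on which mice were included. Without HFD replicate 2, 3 or 4, or without ND replicate 5, 6 or 7, no gene passed. Without HFD replicate 1, 918 genes passed, and without ND replicate 2, 78 passed.

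The comparison of Vasc with HFD mice shares the HFD mice with the contrast that helped to choose the genes. In Vasc versus HFD mice, none of the 10 genes and none of 15913 genes passed the edgeR threshold. At an unadjusted p under 0.05 there were 221 genes, 1.39% of those tested, among them Mrc1 from the 10, and DESeq2 called 7 genes (0.0268%), of which none was among the 10. For each of the 10 genes the adjusted p came to 0.9997. Their log2 fold changes ran from -0.34 for Mrc1 to 0.29 for Cd68, with a median of 0.05 against 0.004 over all genes.

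In Vasc versus ND mice, which share the ND mice with the contrast that helped to choose the genes, the 10 genes had a median of -0.60 against -0.004 over all genes, and 9 of them were below 0, against 50.6%. The ranges did not overlap for 6 genes, C1qa, C1qb, C1qc, Tyrobp, Cd68 and Cyba, all lower in the Vasc mice, against 7.73% of all genes in either direction and 3.69% lower. None of 15935 genes passed the edgeR threshold, 2225 had an unadjusted p under 0.05 (14.0%), and DESeq2 called 417 (2.69%), with those 6 among them. The adjusted p of edgeR was 0.153 for C1qa, C1qc, Tyrobp and Cyba, 0.184 for Cd68 and 0.204 for C1qb. The log2 fold changes of C1qa, C1qb and C1qc were -0.69 ± 0.11 (SE), -0.52 ± 0.13 and -0.73 ± 0.12.

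The differences of the 10 genes between diets were unequal in size. Csf1r served as the reference within each mouse, chosen after its values were seen. Per kilobase, summed C1q was 37.1 ± 2.38 times Csf1r in ND mice (SD, n = 4), 24.6 ± 2.90 times in HFD mice and 27.2 ± 4.28 times in Vasc mice. The ND ratios, 34.4 to 39.6, did not overlap the HFD ratios, 20.8 to 27.7, or the Vasc ratios, 22.6 to 32.9. Cd68 per Csf1r was 3.71 ± 0.209, 1.70 ± 0.325 and 2.22 ± 0.882 in the same order. Its HFD ratios, 1.40 to 2.12, stood below all ND ratios, 3.41 to 3.86, while Vasc replicate 2, at 3.49, reached into the ND range. Tyrobp per Csf1r was 6.31 ± 0.485, 3.70 ± 0.169 and 4.34 ± 0.909, and Cyba per Csf1r was 8.38 ± 0.805, 5.44 ± 0.640 and 5.88 ± 1.36. For both the HFD mice lay below all ND mice. Adgre1 per Csf1r was 1.09 ± 0.149, 0.858 ± 0.0418 and 0.919 ± 0.119, and Mrc1 per Csf1r was 0.499 ± 0.0669, 0.651 ± 0.105 and 0.537 ± 0.0866, with overlapping groups. Against Tyrobp the C1q sum differed less, at 5.90 ± 0.456, 6.64 ± 0.598 and 6.33 ± 0.500, again with overlap. Since Csf1r overlapped between the diets, these ratios restate the HFD and ND levels above, and nothing further is read from them.

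**Figure D3:**
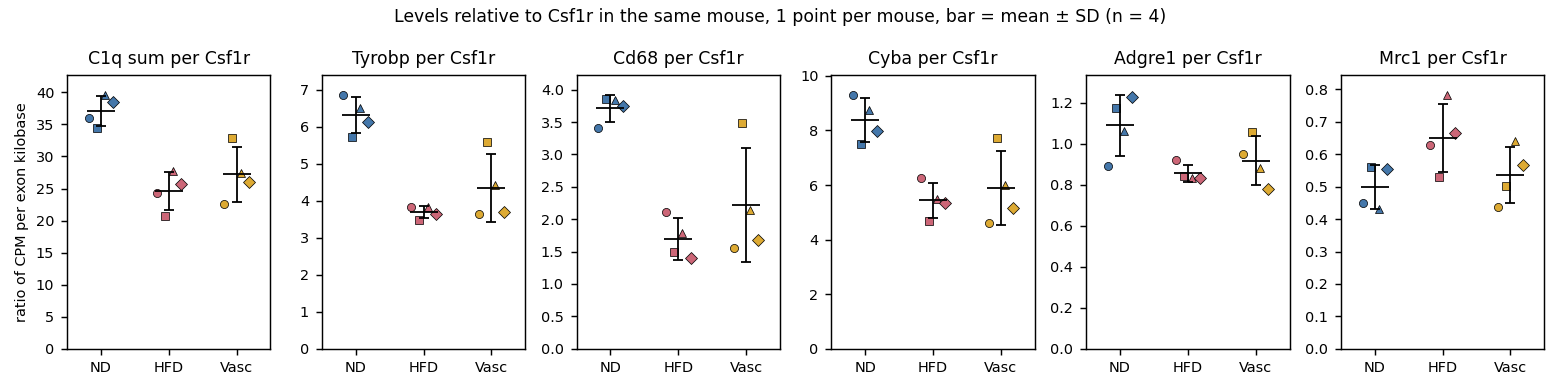
Ratio of the level per exon kilobase of summed C1q and of 5 of the 10 genes to that of Csf1r in the same mouse (vertical axes, from 0), with 1 point per mouse and bars for the mean ± SD (n = 4). For C1q, Tyrobp, Cd68 and Cyba the 4 HFD mice lie below the 4 ND mice, and for Adgre1 and Mrc1 the groups overlap.

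Within the ND group the mice differed together. ND replicates 5 and 7 were above the group mean for all 9 genes other than Cd163, and ND replicates 2 and 6 were below it for all 9. On the log2 scale the mean deviation of the 9 genes was 0.18 and 0.25 in replicates 5 and 7, and -0.25 and -0.18 in replicates 2 and 6. The HFD deviations, -0.10 to 0.13, and the Vasc deviations, -0.04 to 0.09, were smaller. The medullary signal differed among the same mice. The summed level of 10 chromaffin cell markers was 19349 and 22459 CPM in ND replicates 2 and 6, and 12484 and 6372 CPM in ND replicates 5 and 7. It was 3072 to 9915 CPM in HFD mice and 5513 to 10919 CPM in Vasc mice, whereas the summed level of 10 adrenocortical markers was 44562 to 75243, 58828 to 105827 and 61485 to 97662 CPM in ND, HFD and Vasc mice. Chromaffin markers were thus present in every library of the dissected cortex, and all 10 were below 0 in HFD versus ND mice (median -1.28, none past the threshold). None of the 10 adrenocortical markers was below 0, with a median of 0.53, and none passed the threshold either. The part of medullary and cortical RNA in the differences of the 10 genes was not tested. The ND mouse with the lowest chromaffin level, replicate 7, had the highest C1qa, C1qb, C1qc, Csf1r, Tyrobp, Adgre1 and Cyba of all mice. It also had the highest adrenocortical sum of the ND mice, 75243 CPM. HFD replicates 2 and 4 had lower chromaffin sums, 3072 and 3191 CPM, with C1qa at 80.0 and 85.7 CPM.

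Markers of other cell types were read beside these values. Endothelial markers had a median of -0.02 in HFD versus ND mice (10 tested, none passed), and Plvap, of fenestrated endothelium, was at 315 ± 53.1 CPM in ND and 315 ± 36.1 CPM in HFD mice (SD, n = 4). Adipocyte markers had a median of 0.43 (9 tested, none passed) and summed to 246 to 398 CPM in ND and 368 to 451 CPM in HFD mice. Fibroblast and capsule markers had a median of -0.21 (9 tested, none passed), with Dcn, decorin, at -0.96 ± 0.20 (adjusted p = 0.0553), and erythroid markers a median of -0.59 (5 tested, none passed). Of 9 T cell markers 1 passed, Il7r, the interleukin-7 receptor, which fell by 1.35 ± 0.27 on the log2 scale (adjusted p = 0.0480), at an ND mean of 4.53 CPM. Summed levels of the monocyte, dendritic cell, neutrophil, T cell, B cell, NK cell and mast cell markers were at most 26.8 CPM in any mouse. None of these genes passed the threshold apart from Il7r. In HFD versus ND mice the medians were -0.64 for NK cell, -0.45 for dendritic cell and -0.26 for T cell markers. They were -0.02 for monocyte and for mast cell, 0.34 for B cell and 0.51 for neutrophil markers. The NK cell sums were 8.85 to 9.46 CPM in ND and 5.43 to 6.98 CPM in HFD mice, without overlap. The T cell sums were 10.9 to 14.6 and 7.39 to 9.56 CPM, also without overlap. In Vasc versus HFD and in Vasc versus ND mice no gene of any of the 28 lists passed the edgeR test.

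**Figure D4:**
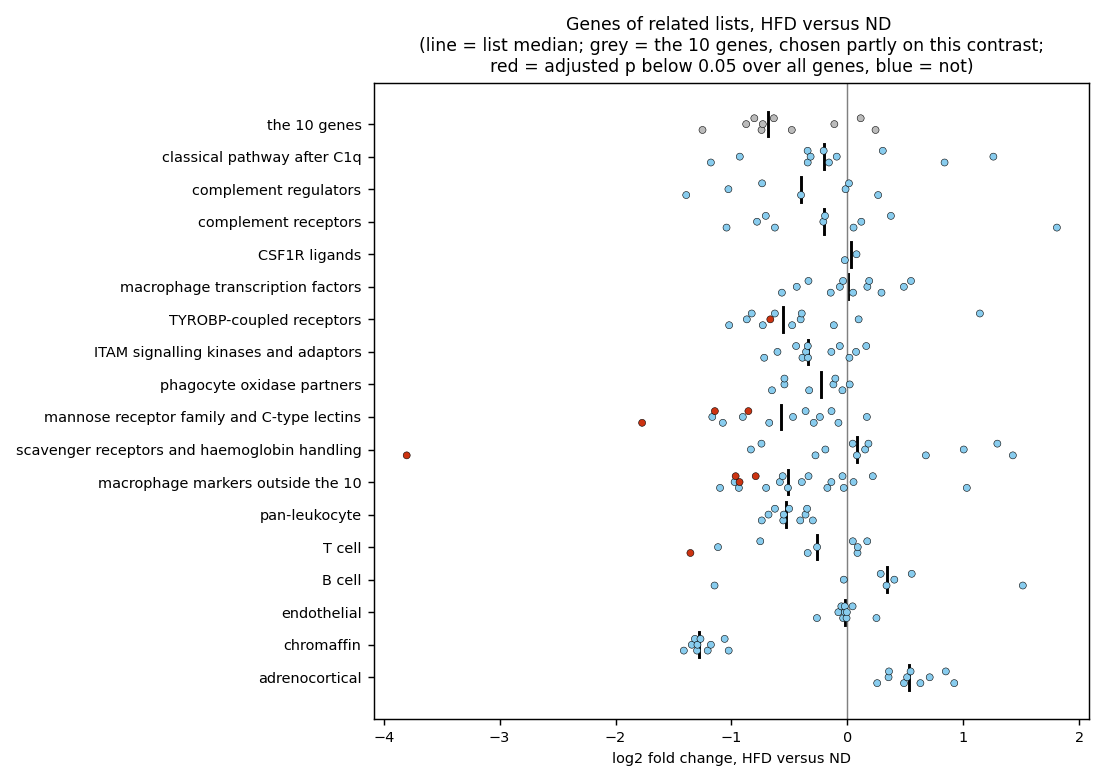
Log2 fold change in HFD versus ND mice (horizontal axis) of the 10 genes and of the tested genes of 17 lists (rows), with 1 point per gene and a line at each median. Grey points are the 10 genes, red points passed the adjusted p threshold of 0.05 over all genes and blue points did not. The median of the 10 genes is -0.68, that of the macrophage markers outside them -0.51 and that of the endothelial markers -0.02.

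The genes most like C1q across mice were sought on deviations from the group means, so that the difference between groups did not enter. The measure was Pearson's r between a gene's log2 CPM and the mean of C1qa, C1qb and C1qc over 12 mice, among 13459 genes with a mean of at least 1 CPM. It is a description, since all genes of a library share its depth and its part of medullary RNA, and both differed among the mice. The 3 C1q genes, which are part of the mean, had r from 0.963 to 0.983. The next were Clec4a3, a C-type lectin of myeloid cells (r = 0.927), Fam129b (0.926), Ezr, which links membrane and actin (0.914), Pirb, an inhibitory receptor of myeloid cells (0.906), and Fcgr3, a receptor of IgG (0.906). Paqr8, a membrane progesterone receptor (0.893), Selplg, the ligand of P-selectin (0.879), Tlr13 (0.874) and Tlr7 (0.867), endosomal receptors of RNA, and Slc11a1, a metal transporter of the phagosome (0.866), completed the 10. Of the other genes of the set Mrc1 came nearest (r = 0.751, rank 119), followed by Tyrobp (0.698), Adgre1 (0.667), Cd68 (0.606), Cyba (0.577) and Csf1r (0.496, rank 2392). Paqr8, unlike the other 9 of these genes, had a log2 fold change above 0 in HFD versus ND mice (0.32, adjusted p = 0.246), and none of the 10 passed the threshold in any comparison.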

How the data were processed

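The authors deposited raw counts per gene, 1 table for each of the 12 mice, with 49585 genes, of which 49326 had a symbol here. Per the labels and the methods of the study, strand-specific total RNA libraries were trimmed with cutadapt, aligned to GRCm38 with STAR and counted with HTSeq 0.6.1p1 in reverse-strand mode on GENCODE M12 genes. The methods call the libraries paired-end but give single-end reads. Gene lengths were taken from GENCODE M21, so levels per kilobase carry the difference between annotations. Counting in reverse-strand mode assigned reads by strand, also where genes on opposite strands overlap.

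Groups and replicate numbers came from the labels. The test was the quasi-likelihood test of edgeR 4.0.16 (R 4.3.3), fitted robustly to the 8 mice compared without covariates, after TMM scaling and filterByExpr at a minimum count of 10. P-values were adjusted by Benjamini-Hochberg over all genes tested, with a threshold of 0.05. The script was tested on simulated data. Levels are TMM-normalized CPM over the 12 mice, and log2 CPM used a prior count of 2. The ± after a level is the SD and after a log2 fold change the SE. The 10 genes and the 28 lists (265 of 266 symbols matched) were chosen with earlier results of these data known. Genes named were the 10 genes, up to 4 genes of a list past the threshold by size of change (otherwise the gene of the list with the highest mean CPM), and the 10 genes most like C1q. Cybb, Spi1, Cebpa and the use of Csf1r as reference within a mouse were chosen after their values were seen. The same holds for C7, C8g, Serping1, Itgam, Itgb2, Itgax, C5ar1, Megf10, Trem1 and Trem2.

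The HFD and Vasc mice share replicate numbers 1 to 4 in the labels. Between an HFD and a Vasc mouse of the same number, deviations from the group mean had r = 0.24, 0.116, 0.34 and 0.632. All were above 0.1, so the numbers were treated as pairs in an alternative fit. HFD replicate 1 nevertheless correlated more with Vasc replicate 2 (r = 0.598), HFD replicate 2 with Vasc replicate 1 (r = 0.443) and HFD replicate 3 with Vasc replicate 4 (r = 0.368). ND mice share only number 2 with the other groups. Alternatives were DESeq2 1.42.0, its size factors, library totals, no filter, a filter of 10 counts in every mouse, a threshold of 0.1, all 12 mice in 1 fit and leaving out each mouse.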

Additional observations from a re-analysis of the deposited data

Results flagged for a closer look

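In 81 groups of 4 mice, the highest or lowest mouse was compared with its nearest neighbour, and 3 stood apart by Dixon's test at its 95% critical value for the gap as a share of the range of the group. Chance marks about 1 in 20 such groups. C1qc was at 63.8 CPM in HFD replicate 3, against 53.6 to 55.0 CPM in the other HFD mice (gap of 0.863 of the range). Mrc1 was at 39.5 CPM in the same mouse, against 29.1 to 30.8 CPM in the others (0.833 of the range). Adgre1 per Csf1r was 0.920 in HFD replicate 1, against 0.834 to 0.841 in the other HFD mice (0.921 of the range).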

How the results depend on the processing

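With 4 mice per group, the number of genes called in HFD versus ND mice moved widely with the settings, while the 10 genes kept the direction of their log2 fold change in most of them. All genes called in HFD versus ND mice were 230. They were 1396 at an adjusted p below 0.1, 84 with library totals, 1965 with DESeq2, 556 with all 12 mice in 1 fit, and 0 to 918 when a mouse was left out. Leaving out HFD replicate 1 gave 918 and ND replicate 2 gave 78, and HFD replicate 2, 3 or 4 or ND replicate 5, 6 or 7 gave 0. At an unadjusted p under 0.05 there were at least 2711 genes in each of the latter. Library totals moved the median log2 fold change of all genes from -0.01 to -0.11. Of the 10 genes 5 were called, 5 or 6 under each alternative in which no mouse was left out, and 0 to 6 when a mouse was left out. Over all genes 1.45% were called in the main fit, 84 of 15909 with library totals and 12.3% with DESeq2. Since the contrast helped to choose the 10 genes, nothing is read from their counts.

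Vasc versus HFD calls of DESeq2 were 7 genes and none of the 10. Vasc versus ND calls were 417 genes (2.69%) and 6 of the 10 with DESeq2, 2 genes with all 12 mice in 1 fit, and 0 to 1 when a mouse was left out (1 without Vasc replicate 2). With HFD and Vasc mice paired by number (replicate block), 0 genes and 0 of the 10 were called and 696 genes had an unadjusted p under 0.05, and the block changed no other call.

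Of the log2 fold changes of the 10 genes, 2 settings of 150 turned the sign in HFD versus ND mice, 7 of 160 in Vasc versus HFD mice and 3 of 150 in Vasc versus ND mice, each when a mouse was left out. Over these fits Cd163 ran from -0.057 to 0.32 in HFD versus ND, -0.28 to 0.25 in Vasc versus HFD and -0.16 to 0.37 in Vasc versus ND mice. Adgre1 (-0.054 to 0.082) and Cyba (-0.052 to 0.077) in Vasc versus HFD and Mrc1 (-0.21 to 0.040) in Vasc versus ND mice also crossed 0. The cause of these changes was not tested. Cd163 had the fewest counts of the 10 genes, 23 to 65 per library.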
